A study of Mus musculus with 6 samples.

Results

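Transcript levels of 10 genes of fibroblast growth factor (FGF) and ERK signalling were compared between R1 mouse embryonic stem cells without and with Sirt1. The genes were the ligand Fgf4, the receptors Fgfr1 and Fgfr2, the phosphatases Dusp6 and Dusp4, the inhibitors Spry2, Spry4 and Spred1, and the ETS factors Etv4 and Etv5. They were taken by exact gene symbol from an Affymetrix probe-set table, where 31 of 45101 probe sets carried a symbol of the set. All 10 genes were measured, among 18193 genes with a symbol of their own, and each was read on its brightest probe set, the highest by its mean over the 6 arrays. The Sirt1-/- group held 3 arrays and the Sirt1+/+ group 3 arrays. Both genotypes had the strain background (129X1 x 129S1)F1 and were grown on gelatin without any added agent beyond leukaemia inhibitory factor (LIF) and serum. Sirt1 encodes an NAD-dependent protein deacetylase. The labels name a single knockout source and a single wild-type source and do not state how many clones or cultures they came from, so that Sirt1 loss and other differences between the sources cannot be told apart. The spread behind the p-values is that between these arrays and may be technical, and 3 arrays per genotype limit the precision of every value.

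FGF ligands bind receptor tyrosine kinases, which act through adaptors and Ras to switch on Raf, Mek and the kinase ERK. In mouse embryonic stem cells Fgf4 is the main ligand made by the cells themselves, and its signal through ERK is known for priming them to leave the naive state and, in the blastocyst, for specifying primitive endoderm. Active ERK induces transcripts of the ETS factors Etv4 and Etv5 and of inhibitors that feed back on the pathway, among them Dusp6, Dusp4, the Sprouty proteins and Spred1. These transcripts are therefore often used as readouts of the pathway, whereas the activity of ERK itself lies in its phosphorylation, which arrays do not measure.

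The labels were checked first. Sirt1, on its 1 named probe set, read 8.02, 7.94 and 8.20 in Sirt1-/- arrays and 10.12, 10.13 and 10.23 in Sirt1+/+ arrays, on the log2 scale of the deposited values. All knockout arrays lay below all wild-type arrays, and Sirt1 fell by 2.11 (SE 0.08; limma, Benjamini-Hochberg adjusted p = 3.98e-05; exact two-sided permutation p = 0.1, the smallest that 3 against 3 arrays allow). The sources used here do not place that probe set inside or outside the deletion. Array medians over all probe sets spanned 4.51 to 4.56 in Sirt1-/- cells and 4.53 to 4.57 in Sirt1+/+ cells. RNA integrity was read from the Actb controls, whose 3' probe set exceeded the 5' probe set by 0.886 to 0.904 in Sirt1-/- arrays and 0.903 to 1.02 in Sirt1+/+ arrays. For the Gapdh controls the same difference was -0.0805 to -0.0398 in Sirt1-/- arrays and -0.0666 to -0.0294 in Sirt1+/+ arrays, and the genotypes overlapped.

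Of the 10 genes, 4 were higher and 4 lower in Sirt1-/- cells at an adjusted p under 0.05, and 2 did not pass. Etv4, Dusp6, Fgfr1 and Spry4 rose, and Etv5, Fgf4, Spry2 and Spred1 fell. Over all genes 30.0% passed, 12.5% higher and 17.5% lower, and the median log2 change was -0.01 both in the set and over all genes. With the dimmest 40% of genes left out, 53.9% of the remaining 10916 genes passed, all 10 genes of the set being among those tested. The median size of the change without regard to sign was 0.29 in the set and 0.14 over all genes. In 8 of the 10 genes the knockout arrays did not overlap the wild-type arrays, against 43.8% of all genes. For size and overlap, all genes include the dim ones. The 10 genes were also chosen with earlier results of these data known, so these comparisons only describe the set. In these bulk samples, fewer cells that express a gene and less RNA per cell cannot be told apart.

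**Figure D1:**
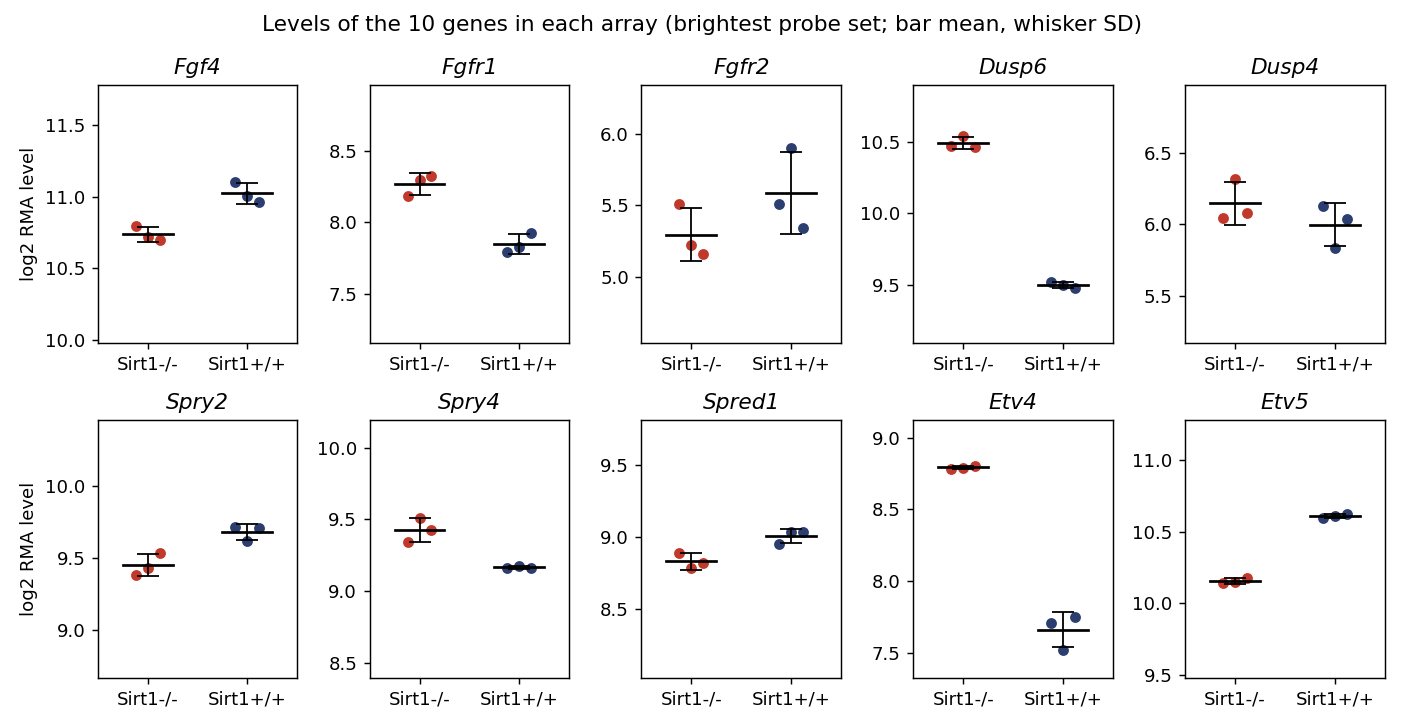
Log2 RMA level (y axis, each panel spanning the same number of log2 units) of each gene's brightest probe set in the 3 Sirt1-/- arrays (left, red) and the 3 Sirt1+/+ arrays (right, blue), with the mean and SD. Dusp6 and Etv4 are clearly higher in Sirt1-/- arrays, Etv5 is lower, and Fgfr2 and Dusp4 overlap between genotypes.

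Fgf4, the ligand, was lower on its bright probe sets and higher on a dimmer one. Its brightest probe set read 10.79, 10.72 and 10.70 in Sirt1-/- cells and 11.10, 11.00 and 10.96 in Sirt1+/+ cells. All knockout arrays were the lower ones, and the level fell by 0.29 on the log2 scale (SE 0.06), or 1.22-fold (limma, Benjamini-Hochberg adjusted p = 0.0108). A probe set of nearly the same brightness, made from the same expressed sequence tag (BB709552), fell by 0.33 (adjusted p = 0.0108 over all 45037 probe sets that are not controls). The probe set made from the Fgf4 messenger RNA record (NM_010202) went the other way. It read 8.04, 7.98 and 7.99 in Sirt1-/- cells and 7.54, 7.47 and 7.49 in Sirt1+/+ cells, a rise of 0.50 (SE 0.06; limma over all probe sets, Benjamini-Hochberg adjusted p = 0.00132). With the 4 Fgf4 probe sets averaged, the log2 change was -0.07 and did not pass (limma, adjusted p = 0.348). The direction of Fgf4 on this array therefore depended on the probe set.

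The receptors differed from each other. Fgfr1, the receptor that most transduces FGF4 in embryonic stem cells, read 8.18, 8.30 and 8.32 in Sirt1-/- cells and 7.79, 7.83 and 7.93 in Sirt1+/+ cells. The genotypes did not overlap, and Fgfr1 rose by 0.42 (SE 0.06), or 1.33-fold (limma, Benjamini-Hochberg adjusted p = 0.00325). A dimmer probe set of Fgfr1 rose by 0.50, a call lost without knockout replicate 2 or 3 or wild-type replicate 2 or 3 (limma, adjusted p up to 0.0822). The dimmest, at a mean level of 4.74, read 0.00 and did not pass. Fgfr1 and Dusp4 lie on chromosome 8, where 313 of 932 genes were higher in Sirt1-/- cells. That is 33.6%, against 12.5% of all genes, and the median log2 change of the chromosome was 0.08. The part of the chromosome in the Fgfr1 result was not tested.

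Fgfr2, the receptor linked to primitive endoderm in the blastocyst, was dim, below the median level of all genes (5.83). It read 5.51, 5.22 and 5.16 in Sirt1-/- cells and 5.51, 5.90 and 5.34 in Sirt1+/+ cells. The genotypes overlapped, and the log2 change of -0.29 had a 95% interval of -0.68 to 0.10 (limma, Benjamini-Hochberg adjusted p = 0.244). Without wild-type replicate 2, the highest array, the change was -0.13. Its other 2 probe sets, at mean levels of 3.50 and 2.77, gave -0.24 and -0.10 and did not pass either. A fall of the size seen for Etv5 lies inside that interval.

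Dusp6, the phosphatase that dephosphorylates ERK in the cytoplasm, had the second largest rise of the set. It read 10.47, 10.54 and 10.46 in Sirt1-/- cells and 9.52, 9.50 and 9.48 in Sirt1+/+ cells. The gap between the groups was many times the spread within them, and Dusp6 rose by 0.99 (SE 0.05), or 1.98-fold (limma, Benjamini-Hochberg adjusted p = 6.23e-05). By size of change it ranked 363 of 18193 genes. Dusp4, a nuclear phosphatase of the same family, read 6.05, 6.32 and 6.08 in Sirt1-/- cells and 6.13, 5.83 and 6.03 in Sirt1+/+ cells. The arrays overlapped, and its log2 change of 0.15 had a 95% interval of -0.10 to 0.40 (limma, Benjamini-Hochberg adjusted p = 0.362), which does not reach the rise of Dusp6. The Dusp4 change was 0.06 without knockout replicate 2 and 0.07 without wild-type replicate 2. Both phosphatases had 1 probe set each.

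Promoters are shown for Dusp6 and Etv5, which rose most and fell most among the 6 of 10 genes whose RefSeq promoter windows on GRCm38.p6 were searched. No window was searched for the other 4, Fgfr1, Dusp4, Spry4 and Etv4, and the motif results do not cover them. Each sequence is the 250 bases before an annotated start, with capitals at GGAA or its reverse complement TTCC, the core that ETS factors bind. The Dusp6 window is chr10:99262981-99263230 on the plus strand. Etv5 has windows at chr16:22439571-22439820 and chr16:22438369-22438618, both on the minus strand.
Dusp6: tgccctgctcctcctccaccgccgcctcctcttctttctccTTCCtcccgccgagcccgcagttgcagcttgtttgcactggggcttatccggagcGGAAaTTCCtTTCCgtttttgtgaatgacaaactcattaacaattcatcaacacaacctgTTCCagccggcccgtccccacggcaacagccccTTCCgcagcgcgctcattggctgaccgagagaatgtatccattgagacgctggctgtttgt
Etv5 upstream start: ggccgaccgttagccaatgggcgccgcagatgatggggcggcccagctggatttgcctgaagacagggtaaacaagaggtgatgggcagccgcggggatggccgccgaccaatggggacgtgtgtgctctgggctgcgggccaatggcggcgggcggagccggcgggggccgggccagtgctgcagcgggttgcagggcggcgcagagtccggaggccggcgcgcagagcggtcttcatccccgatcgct
Etv5 downstream start: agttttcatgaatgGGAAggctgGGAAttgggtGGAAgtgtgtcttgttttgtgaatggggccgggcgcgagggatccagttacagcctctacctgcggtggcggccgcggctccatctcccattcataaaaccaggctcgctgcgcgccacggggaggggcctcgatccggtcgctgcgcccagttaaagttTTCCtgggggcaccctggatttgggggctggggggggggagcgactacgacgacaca
The core occurred at 6 places before the Dusp6 start, at 4 before the downstream Etv5 start and at 0 before the upstream one. As 93.5% of all 32841 windows hold it on either strand, its presence sets no gene apart. The longer ETS site CCGGAA (in 12% of windows), the AP-1 site TGANTCA (6.75%), the cyclic AMP response element TGACGTCA (1.55%) and the CArG box of serum response factor (1.47%) were searched on both strands. None of the 7 windows of the 6 genes holds any of these 4 motifs. That says only that these letters are not in the stretch searched.

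The Sprouty and Spred genes, which encode membrane-associated inhibitors of signalling to Ras and Raf, moved in both directions. Spry4 read 9.34, 9.51 and 9.43 in Sirt1-/- cells and 9.16, 9.17 and 9.16 in Sirt1+/+ cells on its brightest probe set. It rose by 0.26 (SE 0.06), or 1.20-fold (limma, Benjamini-Hochberg adjusted p = 0.0144). Without wild-type replicate 1 the change was 0.26 and the call was lost (adjusted p = 0.0526). All 4 Spry4 probe sets were called higher among all probe sets, a test that 9.46% of probe sets passed in that direction, and the size ranged from 0.26 to 1.08. The largest change was on a probe set that read 7.47, 7.53 and 7.62 in Sirt1-/- cells and 6.40, 6.33 and 6.64 in Sirt1+/+ cells (limma over all probe sets, Benjamini-Hochberg adjusted p = 0.00049). With the 4 probe sets averaged, the rise was 0.66. The direction of Spry4 was thus shared by its probe sets, and its size was not.

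Spry2 read 9.38, 9.43 and 9.53 in Sirt1-/- cells and 9.72, 9.62 and 9.71 in Sirt1+/+ cells. The genotypes did not overlap, but the gap was small, and Spry2 fell by 0.23 (SE 0.06), or 1.18-fold (limma, Benjamini-Hochberg adjusted p = 0.0261). Its other probe set gave -0.06 and did not pass. The call was lost on leaving out knockout replicate 1 or 2 or wild-type replicate 1 or 3, with log2 changes of -0.20, -0.23, -0.22 and -0.22 (limma, adjusted p from 0.0743 to 0.0912). Arrays centred on their medians gave -0.22 (limma, adjusted p = 0.0704), and averaging the probe sets gave -0.15 (limma, adjusted p = 0.112), neither past the threshold.

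Spred1 read 8.89, 8.78 and 8.82 in Sirt1-/- cells and 8.95, 9.04 and 9.03 in Sirt1+/+ cells. It fell by 0.18 (SE 0.05), or 1.13-fold, at the edge of the threshold (limma, Benjamini-Hochberg adjusted p = 0.047). None of its 8 probe sets passed among all probe sets, where 19.8% passed, and their log2 changes ran from -0.18 to 0.13. The 2 probe sets next in brightness gave -0.03 and -0.08. The Spred1 call was lost in 11 of 14 alternatives, among them the removal of any array except knockout replicate 1, with log2 changes of -0.21 to -0.15 and limma adjusted p-values up to 0.136. With the 8 probe sets averaged, the log2 change was -0.07 (limma, adjusted p = 0.327). Its fall was thus the least secure of the 8 calls.

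Etv4 and Etv5 are close relatives, ETS transcription factors of the PEA3 group, and they changed in opposite directions. Etv4 read 8.78, 8.79 and 8.81 in Sirt1-/- cells and 7.70, 7.52 and 7.75 in Sirt1+/+ cells. It had the largest rise of the set, 1.13 (SE 0.07) or 2.19-fold (limma, Benjamini-Hochberg adjusted p = 0.000133), and ranked 242 of 18193 genes by size. Its other probe set rose by 1.08. Etv5 read 10.14, 10.15 and 10.18 in Sirt1-/- cells and 10.59, 10.61 and 10.62 in Sirt1+/+ cells. The spread within each genotype was small, and Etv5 fell by 0.45 (SE 0.04), or 1.37-fold (limma, Benjamini-Hochberg adjusted p = 0.000563). The next Etv5 probe set fell by 0.28 (limma over all probe sets, Benjamini-Hochberg adjusted p = 0.0422). That call was lost without any of 5 arrays, wild-type replicate 2 being the exception. The dimmest Etv5 probe set gave -0.03 and did not pass. With the 3 probe sets averaged, Etv5 fell by 0.25 (limma, adjusted p = 0.0211).

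**Figure D2:**
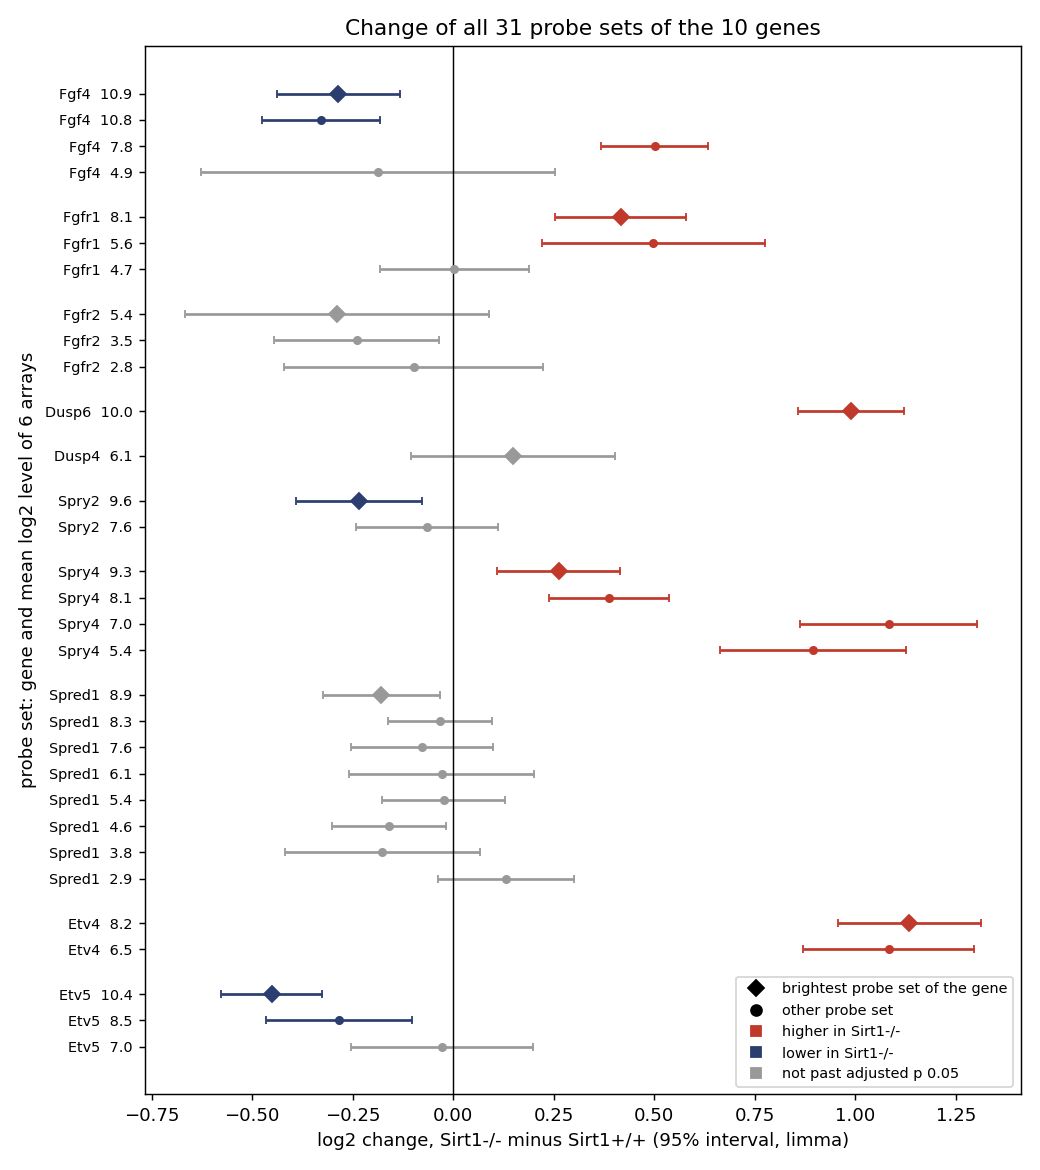
Log2 change (x axis, Sirt1-/- minus Sirt1+/+, with 95% intervals from limma over all probe sets) of each of the 31 probe sets, grouped by gene, with the mean log2 level over the 6 arrays beside each gene name. Diamonds mark the brightest probe set of a gene. The 4 Spry4 and 2 Etv4 probe sets all lie to the right of 0, those of Spred1 lie near 0, and Fgf4 has called probe sets on both sides.

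Over probe sets, 10 of the 31 were called higher, 5 lower and 16 were not called, against 9.46% higher and 10.3% lower of all probe sets. The genes with every probe set called in a single direction were Dusp6, Spry4 and Etv4, and all 3 were higher. Of the genes called lower, Fgf4 had a probe set called in the other direction, and Etv5, Spry2 and Spred1 each had probe sets that did not pass.

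**Figure D3:**
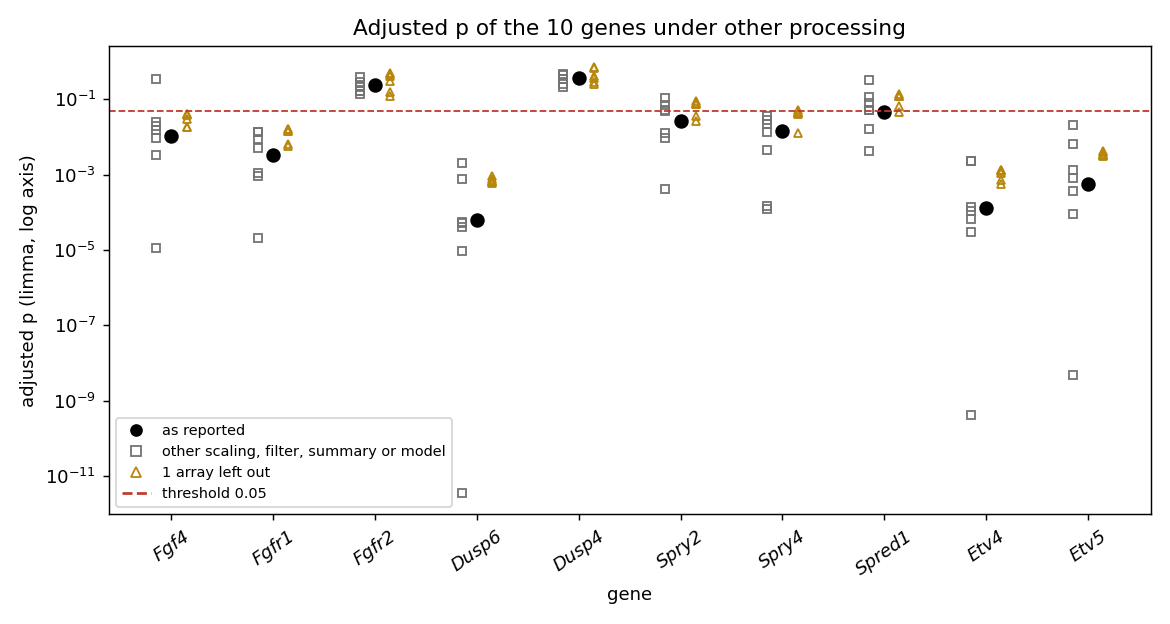
Benjamini-Hochberg adjusted p (y axis, log scale) of the 10 genes in limma as reported (black), under other scaling, filter, probe-set summary or variance model (grey squares) and with 1 array left out (gold triangles). Dusp6, Fgfr1, Etv4 and Etv5 stay under 0.05 at every point, Fgfr2 and Dusp4 stay above it, and the points of Fgf4, Spry2, Spry4 and Spred1 fall on both sides.

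The rest of the pathway was described with a list of 85 other genes in 6 roles, of which 76 were measured. Of these 11 rose and 21 fell, 42.1% in all, against 30.0% of all genes, and the median log2 change was -0.02. The 30.0%, here and for each role below, includes dim genes. With the dimmest 40% of genes left out, 53.9% of the remaining genes passed. The other listed genes were not analysed here. In 42 of the 76 the arrays of the genotypes did not overlap, against 43.8% of all genes.

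Of 11 other ligands none rose in limma (0 also at an unadjusted p under 0.05) and 3 fell. That is 27.3% called, against 30.0% of all genes. Fgf15, an FGF of the endocrine group, averaged 6.74 ± 0.12 in Sirt1-/- cells and 7.36 ± 0.04 in Sirt1+/+ cells (SD, n = 3 each), so that it fell by 0.62 (limma, Benjamini-Hochberg adjusted p = 0.00123). The others that fell, named after their values were seen, were Fgf3 (-0.60, or -0.36 with probe sets averaged) and the dim Fgf18 (-0.34). The Fgf18 call was lost without knockout replicate 1 or 3 or wild-type replicate 1 or 2 (limma, adjusted p up to 0.0997). Fgf5, a marker of the primed epiblast, was dim, at 3.47 ± 0.22 in Sirt1-/- cells and 3.57 ± 0.31 in Sirt1+/+ cells (SD, n = 3 each; limma, adjusted p = 0.752). Both means lay below the lower quartile of all genes, 3.65.

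Of 10 other receptors and coreceptors 2 rose and 5 fell, or 70% called, against 30.0% of all genes. Flrt3, a membrane protein that binds FGF receptors, averaged 4.35 ± 0.42 in Sirt1-/- cells and 5.87 ± 0.36 in Sirt1+/+ cells (SD, n = 3 each), and it fell by 1.51 (limma, Benjamini-Hochberg adjusted p = 0.00544), and a dimmer probe set of it also fell. Klb, the coreceptor for endocrine FGFs, fell by 1.03, while its dimmer probe set read -0.02 and did not pass, and the average of both was -0.52. Hs2st1, which sulphates the heparan chains that FGFs need for binding, fell by 0.62, or by 0.26 with probe sets averaged. Another Hs2st1 probe set was called higher, by 0.37. Fgfr3 fell by 0.40 and Fgfr4 rose by 0.25. The Fgfr3 call was lost without knockout replicate 1 or 3 or wild-type replicate 2 or 3, and the Fgfr4 call without any array except knockout replicate 1, with limma adjusted p-values up to 0.0906 and 0.0694, and no other Fgfr3 or Fgfr4 probe set passed.

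Adaptors and Ras activators gave 3 higher and 3 lower of 9, or 66.7% called, against 30.0% of all genes. Of the 3 higher, Shc1 and Plcg1, named after their values were seen, lost the call without any of 5 arrays (limma, adjusted p up to 0.123 and 0.0807). The exceptions were knockout replicate 2 for Shc1 and wild-type replicate 1 for Plcg1. Both Son of sevenless exchange factors, which load Ras with GTP, were lower on their brightest probe sets. Sos2 averaged 5.76 ± 0.07 in Sirt1-/- cells and 6.77 ± 0.13 in Sirt1+/+ cells (SD, n = 3 each), which is 2.01-fold lower. Sos1 averaged 6.80 ± 0.10 in Sirt1-/- cells and 8.26 ± 0.05 in Sirt1+/+ cells (SD, n = 3 each), and it fell by 1.46 (limma, Benjamini-Hochberg adjusted p = 5.13e-05). Its other probe sets did not pass and read 0.09 to 0.28, and the average over all Sos1 probe sets, -0.13, did not pass either. Ptpn11, the phosphatase Shp2 that links receptors to Ras, rose by 0.42 and, on a second probe set, by 0.56. Grb2, an adaptor named after its values were seen, fell by 0.36 on the brighter of its probe sets and was called higher by 0.29 on the other. Of 7 measured genes of Ras, Raf, Mek and Erk 1 rose and 3 fell, or 57.1% called. Araf rose by 0.33, Braf fell by 0.36 and Map2k1, which encodes Mek1, fell by 0.39. With probe sets averaged, the changes were 0.12 for Araf and -0.13 for Braf, and neither passed.

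Among 16 other feedback inhibitors 2 rose and 3 fell, or 31.25% called, close to the 30.0% of all genes. Dusp9, a phosphatase of ERK that is abundant in embryonic stem cells, averaged 8.58 ± 0.03 in Sirt1-/- cells and 9.57 ± 0.08 in Sirt1+/+ cells (SD, n = 3 each). It fell by 0.995 (limma, Benjamini-Hochberg adjusted p = 0.000104), and its other 2 probe sets fell by 0.98 and 0.73. Dusp9 and Dusp6, phosphatases of the same family, thus changed by a like amount in opposite directions. Dusp5, a nuclear phosphatase of ERK, rose by 0.45. Errfi1, an inhibitor of the epidermal growth factor receptor, fell by 0.88. Spry3, named after its values were seen, was 1 of the 3 called lower, at -0.30. Its mean level of 2.64 lay below the lower quartile of all genes, 3.65. The Spry3 call was lost without knockout replicate 2 or 3 or wild-type replicate 1 or 2 (limma, adjusted p up to 0.0909). Spry1 averaged 8.33 ± 0.06 in Sirt1-/- cells and 8.18 ± 0.07 in Sirt1+/+ cells (SD, n = 3 each) and did not pass (log2 change 0.15; limma, Benjamini-Hochberg adjusted p = 0.112). With the dimmest 40% of genes left out and under an intensity trend with robust variances Spry1 was called higher (limma, adjusted p = 0.0495 and 0.0409).

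Other ERK-responsive transcripts gave 3 higher and 4 lower of 23, or 30.4% called, close to the 30.0% of all genes. Fos, an immediate early gene and AP-1 subunit, averaged 7.13 ± 0.04 in Sirt1-/- cells and 6.36 ± 0.08 in Sirt1+/+ cells (SD, n = 3 each), a rise of 0.76 (limma, Benjamini-Hochberg adjusted p = 0.000239). Ier3, an early response gene, fell by 1.06, and Ccnd1, the cyclin of early G1, fell by 0.71. Egr1 averaged 6.96 ± 0.05 in Sirt1-/- cells and 7.15 ± 0.08 in Sirt1+/+ cells (SD, n = 3 each) and did not pass (limma, Benjamini-Hochberg adjusted p = 0.0542). It passed with the dimmest 40% of genes left out and with an intensity trend and robust variances (limma, adjusted p = 0.0215 and 0.0429). Myc did not pass either, at -0.05. Elk3, named after its values were seen, was 1 of the 3 called higher, at 0.27. Another Elk3 probe set was called lower, by 0.58, and the average over its probe sets, -0.18, did not pass. The Elk3 call was lost without knockout replicate 2 or 3 or wild-type replicate 1 or 2 (limma, adjusted p up to 0.1025). Of the 32 called genes outside the set of 10, 23 kept their call on leaving out each array in turn, and 9 lost it in at least 1 case.

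**Figure D4:**
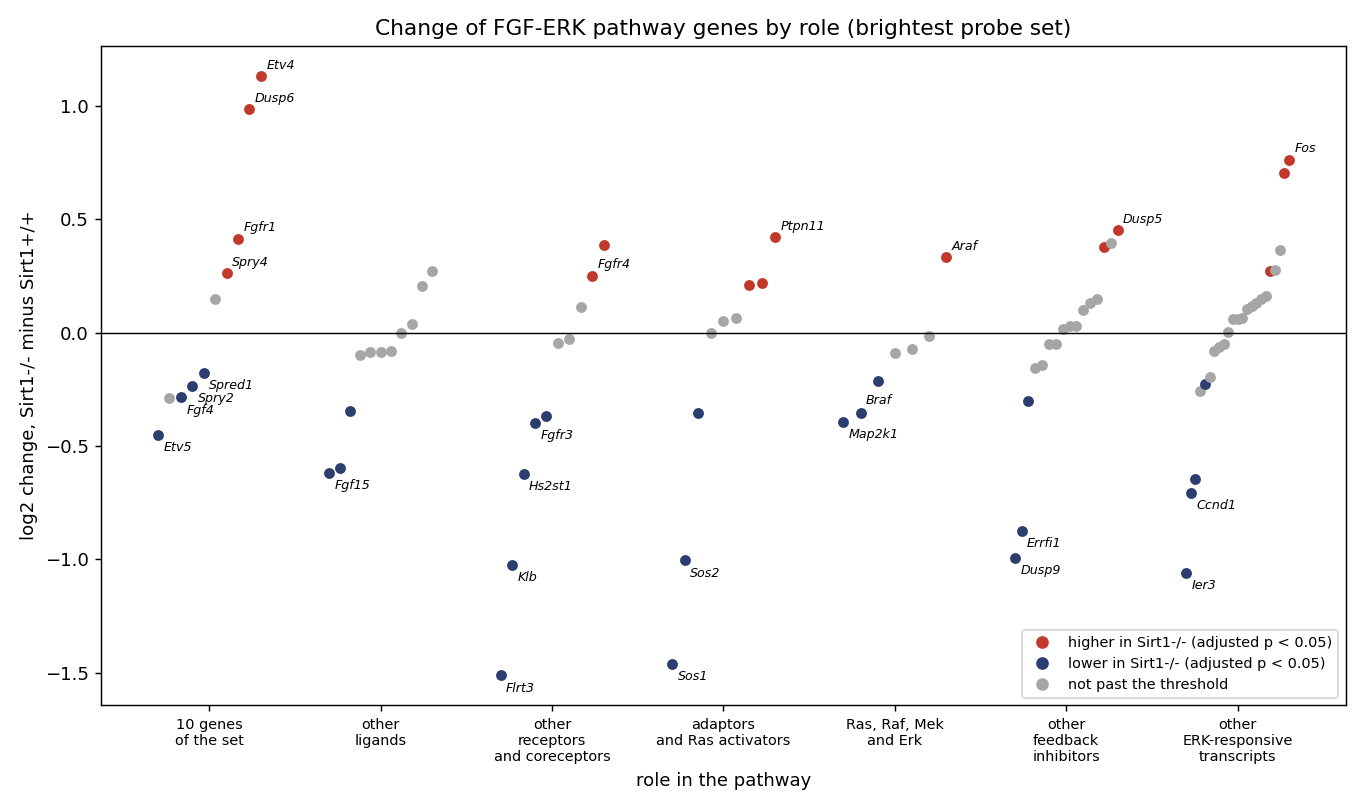
Log2 change (y axis, Sirt1-/- minus Sirt1+/+) of the 10 genes and of 76 other pathway genes by role (x axis), each point 1 gene on its brightest probe set and sorted by value within its role. Called genes are red (higher) or blue (lower), and every role except the other ligands has called genes on both sides of 0.

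Markers of cell types were read beside these genes. Of 10 markers of pluripotent cells none rose in limma (0 also at an unadjusted p under 0.05) and 5 fell, against 12.5% higher and 17.5% lower of all genes. Nanog fell by 0.90 and Sox2 by 0.31, while Pou5f1 did not pass (12.39 ± 0.02 in Sirt1-/- and 12.29 ± 0.04 in Sirt1+/+ cells, SD, n = 3 each; limma, adjusted p = 0.154). With an intensity trend and robust variances Pou5f1 was called higher (limma, adjusted p = 0.00253). All 10 lay above the median of all genes. Of 10 markers of primitive endoderm, the lineage that FGF signalling promotes, 7 fell, against 17.5% of all genes, among them Pdgfra by 1.52, Gata6 by 1.33 and Sox17 by 0.78. Sparc, the brightest of that list and named after its values were seen, went the other way. All knockout arrays lay above all wild-type arrays, but its log2 change of 0.11 did not pass (limma, Benjamini-Hochberg adjusted p = 0.116). The other probe sets of Pdgfra and Gata6 did not pass, and averaged over probe sets the log2 changes were -0.50 for Pdgfra, -0.57 for Gata6 and -1.37 for Sox17. The mean log2 level of the list was 5.52 to 5.64 in Sirt1-/- arrays and 6.46 to 6.49 in Sirt1+/+ arrays, and Gata4 was dim in both (4.16 and 4.33). Of 8 measured markers of the primed epiblast 4 fell, against 17.5% of all genes. The list means were 5.45 to 5.59 in Sirt1-/- arrays and 5.95 to 5.99 in Sirt1+/+ arrays. Fibroblast or feeder markers gave 1 higher and 2 lower of 10, with list means of 4.03 to 4.18 in Sirt1-/- and 4.18 to 4.25 in Sirt1+/+ arrays, and 6 of the 10 lay below the lower quartile. Trophectoderm markers gave 1 higher and 1 lower of 8, with list means of 5.56 to 5.66 in Sirt1-/- and 5.61 to 5.68 in Sirt1+/+ arrays. Beside the fibroblast and trophectoderm counts, the shares over all genes were 12.5% higher and 17.5% lower. The part of these cell types in the changes of the FGF-ERK genes was not tested.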

How the data were processed

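Total RNA of 3 Sirt1-/- and 3 Sirt1+/+ samples was hybridised to Affymetrix 3' expression arrays, grouped by the sample titles. The submitters' processing notes name RMA and Partek 6.5, with which the authors made the deposited log2 values. The log2 scale was taken from the range of the values, which were used without recentring. Settings used in Partek are not stated there. RMA gives no detection calls. The table held 45101 probe sets. The 64 control, 932 several-symbol and 9160 unnamed probe sets were not used for genes, which left 18193 genes, and 18031 of them matched the RefSeq annotation by Entrez identifier. The genotypes were compared in R 4.3.3 by the functions lmFit and eBayes of limma 3.58.1 (two-sided, 4 residual degrees of freedom). Adjustment was by Benjamini-Hochberg over the 18193 genes at 0.05, and probe sets likewise over the 45037 that are not controls. No filter on dim genes was applied. The procedure was tested on simulated data.

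The 10 genes and the lists were chosen with earlier results of these data known. Named were the 10 genes, Sirt1, up to 3 called, non-overlapping and brighter-than-median genes with the largest change per pathway role, and 12 pathway and 7 marker genes fixed by name. Fgf3, Fgf18, Shc1, Plcg1, Grb2, Spry3, Elk3 and Sparc fall outside that rule. Other settings were repeated quantile normalisation, median centring, removal of the dimmest 40% of genes, averaging of probe sets, an intensity trend with robust variances, unmoderated variances, a replicate block, removal of each array and a threshold of 0.01. The GGAA motif was added after the other motifs gave no match.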

Additional observations from a re-analysis of the deposited data

How the results depend on the processing

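All 10 genes kept their direction in each of 14 alternatives. Dusp6, Fgfr1, Etv4 and Etv5 also kept their calls in all 14, and Fgfr2 and Dusp4 passed in none. Of the set, 3 or 4 genes were called higher on leaving out 1 array. The count called lower, 4 as reported, was 2 with arrays centred on their medians, 1 with probe sets averaged, 1 at an adjusted p under 0.01, and 2 to 3 on leaving out 1 array (2 without knockout replicate 2 or wild-type replicate 1 or 3). With the replicate number as a block 2 of the set were called lower, and the share of all genes called was 25.8% in place of 30.0%. The labels do not say whether like-numbered arrays form pairs. Their deviations from the group means correlated across genes at 0.0515, -0.0865 and 0.198, and 3 of 6 arrays correlated best with their own number. So few values cannot settle whether the arrays are paired. Of the other pathway genes 7 in place of 11 were called higher at 0.01, and 7 to 9 on leaving out 1 array (7 without knockout replicate 3 or wild-type replicate 2). At 0.01, 3356 genes were called in place of 5462. Directions turned for Elk3 (-0.1772) and Fgf5 (0.005) with probe sets averaged and, on leaving out 1 array, for Fgf5 (-0.2582 to 0.0562) and Myc (-0.1378 to 0.0037). Of the probe sets that were not called, leaving out 1 array turned the dimmest of Fgfr1 (-0.0474 to 0.0556), the dimmest of Fgfr2 (-0.2077 to 0.0413), the dimmest of Etv5 (-0.1061 to 0.0363) and those of Spred1 at mean levels of 6.13 (-0.0926 to 0.0751) and 5.41 (-0.0683 to 0.0118). Repeated quantile normalisation also turned the last 2 (0.0067 and 0.0035). The causes were not tested.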

Other observations

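Within each array, the change was also compared between the brightest probe set of a gene and its other probe sets, over 21 pairs. For Fgf4 the brightest minus the probe set of the messenger RNA record was 2.71 to 2.75 in Sirt1-/- arrays and 3.47 to 3.56 in Sirt1+/+ arrays, a difference of -0.79 with no overlap (exact two-sided permutation p = 0.1, the smallest possible; 0.263 adjusted over the 21 pairs). For Spry4 the brightest minus the probe set with the largest rise was 1.81 to 1.98 in Sirt1-/- arrays and 2.52 to 2.84 in Sirt1+/+ arrays, a difference of -0.82 (exact two-sided permutation p = 0.1; 0.263 adjusted). The ranges did not overlap in either gene. As 0.1 is the smallest p that 3 against 3 arrays allow, no pair could pass 0.05 in this test, with or without adjustment. For Etv4 the corresponding values were 1.75 to 1.83 in Sirt1-/- arrays and 1.69 to 1.77 in Sirt1+/+ arrays, and they overlapped (difference 0.05; exact two-sided permutation p = 0.3).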
